A study of Homo sapiens with 6 samples.

Results

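A list of 40 interferon-stimulated genes was followed gene by gene and library by library in YAPC cells, a human pancreatic cancer line. The members were taken by symbol from the deposited table of expression values, with the row of the highest mean kept where a name had several, and all 40 were found among the 25442 genes of the table. Both groups carried the rtTA transactivator and a Dox (doxycycline)-inducible retroviral vector, which held a Flag-tagged GLI2 cDNA in the YAPC-iGLI2 cells and no insert in the YAPC-iEV cells. All 6 libraries, 3 iEV and 3 iGLI2, came from cells kept in Dox for 6 days, so the controls share the drug, the rtTA and the vector. The labels do not say that the replicates of a group are separate cultures or clones, and the methods speak of independent biological replicates only for the study in general, so a p-value measures the spread between these libraries, which may be technical. The sample codes are YRE1A, YRE1B and YRE2A for iEV replicates 1 to 3 and YRG1A, YRG1B and YRG2B for iGLI2 replicates 1 to 3. Replicates 1 and 2 of each group thus share a digit, and what the digit stands for is not given. Expression is given as FPKM, the fragments of a gene scaled by transcript length and by library size, and loci are in hg19. Each gene was tested with limma on log2(FPKM + 1), two-sided, with Benjamini-Hochberg adjustment over the 12493 genes whose mean reached 1 FPKM and a threshold of 0.05. Of the members, 39 were tested. IRF7, a transcription factor that amplifies interferon production, stayed below the filter with 0.0225, 0.0263 and 0 FPKM in iEV replicates 1 to 3 and 0.0150, 0 and 0.0510 FPKM in iGLI2 replicates 1 to 3.

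Interferons are secreted proteins that cells release on sensing viral nucleic acid. Type I and type III interferons act through JAK1 and TYK2 to assemble the factor ISGF3, which holds STAT2 and IRF9 and binds the interferon-stimulated response element (ISRE), while interferon gamma acts at gamma-activated sites (GAS). The genes switched on in this way encode sensors of viral RNA, enzymes and binding proteins that block viral replication, and feedback inhibitors, and many tumour cell lines express them without added interferon.

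The upstream sequences show how these genes share an element and where they differ. The stretches below are the 160 bases before the RefSeq start (GRCh38.p14), written 5′ to 3′ on the strand of the gene. They are shown for the members with the smallest p-values in each direction among those with a RefSeq promoter, SAMD9 and IFI6 (higher in iGLI2) and IRF1 and IFITM3 (lower in iGLI2), and for IFITM1, the member with the widest spread in iGLI2. Capitals mark matches to the ISRE core, GAAANNGAAA, and to the GAS, TTCNNNGAA, searched on both strands.
SAMD9: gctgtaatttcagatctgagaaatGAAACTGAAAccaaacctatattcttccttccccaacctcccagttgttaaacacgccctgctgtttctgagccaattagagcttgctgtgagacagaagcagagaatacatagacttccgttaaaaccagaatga
IFI6: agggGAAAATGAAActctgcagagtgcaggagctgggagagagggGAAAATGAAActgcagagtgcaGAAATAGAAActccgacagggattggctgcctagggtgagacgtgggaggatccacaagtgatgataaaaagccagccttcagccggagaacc
IRF1: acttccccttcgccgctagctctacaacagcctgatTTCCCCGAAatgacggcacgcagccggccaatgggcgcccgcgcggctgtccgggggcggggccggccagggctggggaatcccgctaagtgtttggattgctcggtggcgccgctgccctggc
IFITM3: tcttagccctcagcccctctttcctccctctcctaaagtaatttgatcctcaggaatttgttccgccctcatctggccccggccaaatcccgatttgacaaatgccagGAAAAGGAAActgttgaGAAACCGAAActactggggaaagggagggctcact
IFITM1: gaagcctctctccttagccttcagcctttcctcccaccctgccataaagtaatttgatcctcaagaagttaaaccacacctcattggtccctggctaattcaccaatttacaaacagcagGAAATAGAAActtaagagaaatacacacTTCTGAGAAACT
The stretch of SAMD9 lies at chr7:93117980-93118139 on the minus strand, that of IFI6 at chr1:27672193-27672352 on the minus strand and that of IRF1 at chr5:132490774-132490933 on the minus strand. Those of IFITM3 and IFITM1 lie at chr11:320861-321020 on the minus strand and chr11:313880-314039 on the plus strand. Both genes that were higher hold the ISRE core, once in SAMD9 and 3 times in IFI6. Of those that were lower, IFITM3 holds it 2 times, and IRF1 holds a GAS and no ISRE core. The last capitals of IFITM1 are a GAS that runs into the first bases of an ISRE core extending past the start.

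RefSeq promoters, from 250 bases before to 50 bases after the start, were at hand for 32 of the 40 members. IRF7, USP18, IFIT2, OAS2, OASL, MX2, TRIM22 and IFITM2 were not matched. By exact match to GRCh37, 31 of the 32 were placed (not HERC5), and 29 of these had their start within 395 bases of the 5′ end of the deposited locus. The RefSeq start of RSAD2 lay 11780 bases before the deposited locus, so its window does not cover the start of that locus. That of PARP9 lay 10418 bases inside its locus. DTX3L, on the other strand, is listed under the same locus, so the end of this locus need not be a start of PARP9. Both RSAD2 and PARP9 are among the members that did not pass the test. The ISRE core was present in 19 of the 32 (59.4%), against 996 of all 27305 promoters (3.65%). It was found in 4 of the 7 matched members that were higher in iGLI2, in 2 of the 4 that were lower and in 13 of the 21 that did not pass the test. The GAS was present in 10 of the 32 (31.2%), against 7.88% of all promoters, and in 2 of 7, 2 of 4 and 6 of 21 of the same classes. The GLI binding motif GACCACCCA had 0 matches in the 32 and 68 in all promoters (0.249%). A match is a run of letters and not a bound site, and the list holds genes known for such elements. Adjacent ISRE cores overlap in IFIH1, ISG15, HERC5 and BST2, and the GAS overlaps an ISRE core in IFITM1, BST2, IFI27 and EPSTI1. The plot of motif positions shows that the element was present in members that were higher and in members that were lower.

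**Figure D1:**
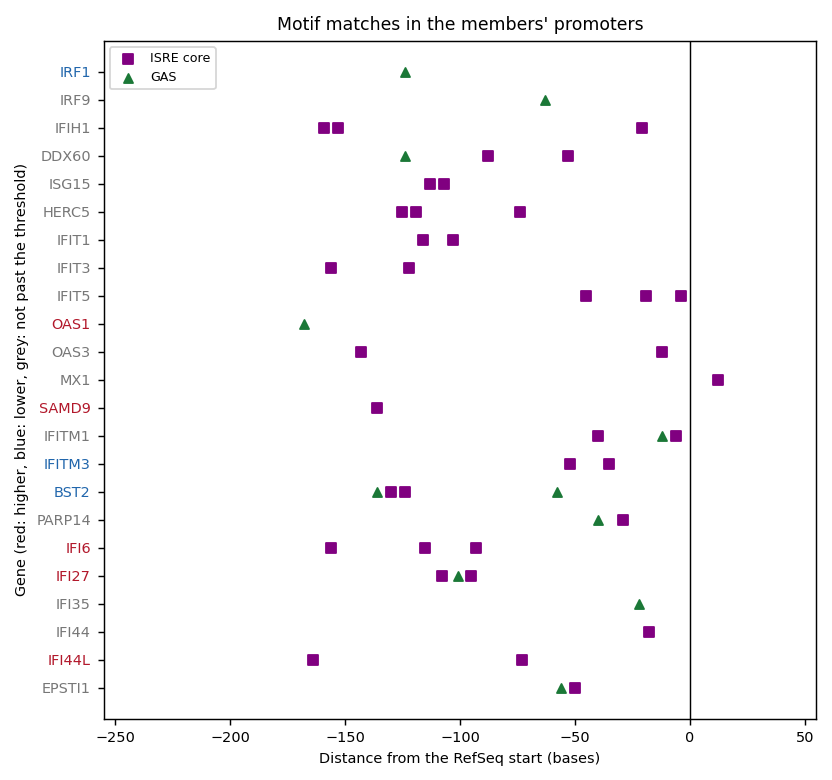
Positions of ISRE core (squares) and GAS (triangles) matches, as the distance in bases of their first base from the RefSeq start (vertical line), for the members with at least 1 match. Gene names are red for higher in iGLI2, blue for lower and grey for not past the threshold; ISRE cores stand in 19 genes of all 3 colours.

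The libraries of a group did not stand equally close, which bears on every member below. Over the 12493 genes tested, the median absolute log2 difference was 0.055 between iGLI2 replicates 2 and 3, and 0.209 and 0.216 between iGLI2 replicate 1 and each of them. In iEV cells it was 0.0674 between replicates 2 and 3, and 0.136 and 0.141 from replicate 1. GLI2 (chr2:121554867-121750229), the gene on the construct, had 0.466, 0.412 and 0.344 FPKM in the iEV libraries and 94.5, 207 and 195 FPKM in the iGLI2 libraries (log2 fold change 6.81 ± 0.30 (SE), limma adjusted p = 1.62e-04). All 6 libraries therefore matched their labels, and GLI2 in iGLI2 replicate 1 was 0.470 of the mean of the other two. The ductal epithelial markers were high, with KRT7, KRT19, EPCAM, CDH1 and CLDN4 summing to between 2145 and 2294 FPKM in iEV and between 1959 and 2213 FPKM in iGLI2, whereas KRT8 and KRT18 are listed at 0 in all 6 libraries, so a 0 in this table is not read as absence. Of 10 leukocyte markers 3 reached a mean of 1 FPKM (CD14, CD68 and LYZ), their list summed to 18.9 to 22.1 FPKM in iEV and 10.6 to 18.5 FPKM in iGLI2, PTPRC stayed at or below 0.0343 FPKM and MS4A1 was at 0. Fibroblast markers summed to 1.51 to 1.64 FPKM in iEV and 2.40 to 3.09 FPKM in iGLI2 with DCN at 0, and endothelial markers stayed at or below 0.599 FPKM. The sums hide single calls. Of the ductal epithelial markers, EPCAM (mean 405 FPKM in iEV and 523 in iGLI2, limma adjusted p = 0.00709) and CDH1 (53.2 and 68.9, adjusted p = 0.0169) were higher and 0 lower. Of the other lists, CD14 was lower (4.64 and 1.62, adjusted p = 0.00274) and COL1A1 higher (1.41 and 2.69, adjusted p = 0.011). Read depth is unknown, since FPKM carries no counts.

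Among the 39 members tested, 8 were higher in iGLI2 cells (HERC6, OAS1, MX2, SAMD9, SAMD9L, IFI6, IFI27 and IFI44L) and 7 were lower (IRF1, DDX58, IFIT2, TRIM22, IFITM2, IFITM3 and BST2), while 24 did not pass the threshold. The shares of 20.5% higher and 17.9% lower stand beside 10.1% and 11.8% of all genes tested. The 3 iGLI2 values lay wholly above the 3 iEV values in 11 members (28.2%, against 19.2% of all genes) and wholly below in 12 (30.8%, against 22.8%), and in 16 the groups overlapped. The estimate was positive for 20 members and negative for 19, with a median log2 fold change of 0.084 beside -0.0146 for all genes, so the estimates were split about evenly around 0. In these bulk samples, a larger share of expressing cells and more RNA per cell cannot be told apart. When the small RNA genes were dropped and each library was rescaled to the remaining total, 13 members were higher and 7 lower. That scaling raised the share of higher among the called members from 53.3% to 65%, and among all called genes from 46% to 59.3%. DDX58 was not called under it, and the negative estimates of UBE2L6 and IFIH1 turned positive.

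**Figure D2:**
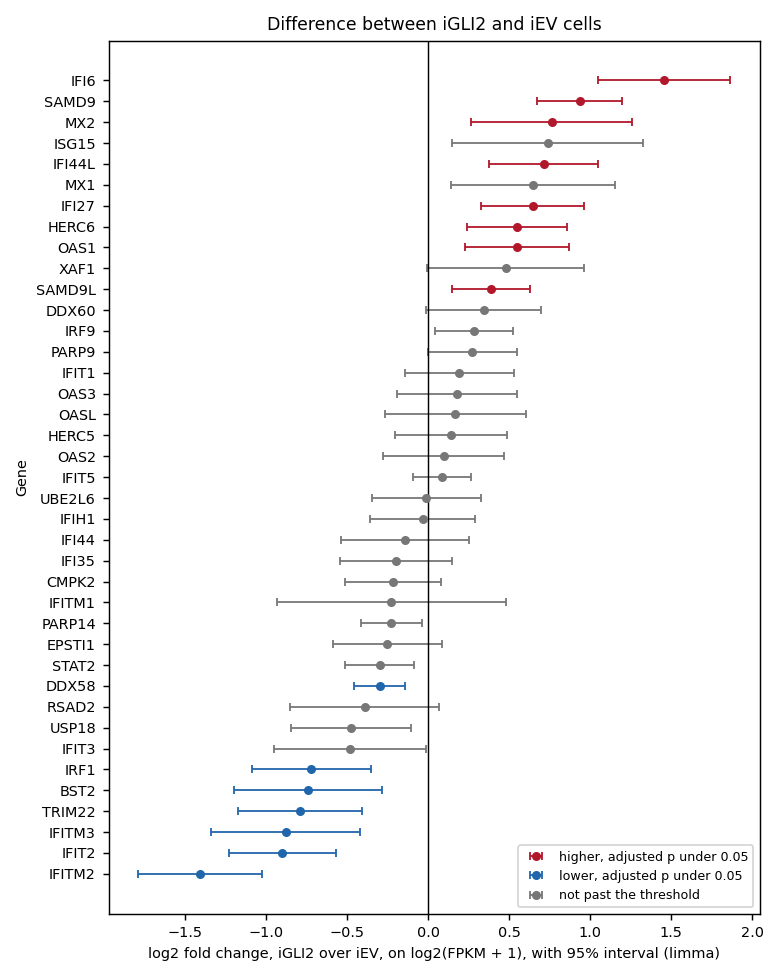
Log2 fold change of each tested member, iGLI2 over iEV on the log2(FPKM + 1) scale, with its 95% interval from limma (3 libraries a group). The estimates run from -1.41 (IFITM2) to 1.46 (IFI6) with 8 red points above 0, 7 blue points below 0 and 24 grey points that did not pass the threshold.

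How many genes were called depended on the libraries, among the members as in the whole table. IFIT2, SAMD9, IFITM2 and IFI6 were called in each of the 6 fits that left out 1 library. The counts were 5 higher and 5 lower without iEV replicate 1, 2 and 2 without iEV replicate 2, 3 and 2 without iEV replicate 3, 2 and 3 without iGLI2 replicate 2, and 2 and 4 without iGLI2 replicate 3. All genes called fell from 1262 higher and 1480 lower to between 605 and 1133 in a direction in these 5 fits. Without iGLI2 replicate 1 they were 14 and 8, with all 15 members kept and IRF9, ISG15, MX1, OAS3, PARP9, XAF1 (higher) and USP18 (lower) gained, while all genes rose to 1836 and 1908. With both libraries numbered 1 left out, a choice made after the data were seen, 18 were higher and 11 lower, again with all 15 kept, beside 2706 and 2856 of all genes. With a block for the digit in the sample code, BST2 (adjusted p = 0.0518), HERC6 (0.0525), MX2 (0.0539) and SAMD9L (0.0750) were no longer called.

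Of the 3 transcription factors tested, 1 was lower and 0 were higher. IRF1 (chr5:131817301-131826465), which is itself induced by interferon and activates interferon-stimulated genes, had 38.5, 51.8 and 50.2 FPKM in iEV replicates 1 to 3 and 23.6, 30.7 and 29.6 FPKM in iGLI2 replicates 1 to 3. Replicate 1 was the lowest library of each group, and the groups did not overlap. IRF1 fell by 0.72 ± 0.15 (SE) on the log2 scale (limma adjusted p = 0.0218). STAT2, a subunit of ISGF3, had 13.6, 10.8 and 12.2 FPKM in iEV and 10.0, 9.53 and 9.56 FPKM in iGLI2, and IRF9, the DNA-binding subunit, had 39.0, 38.5 and 40.3 FPKM in iEV and 41.4, 51.4 and 51.7 FPKM in iGLI2. The groups of both were separate, with STAT2 below and IRF9 above in iGLI2, but neither passed the threshold (adjusted p = 0.0582 and 0.0982). The IRF1 call was lost without iEV replicate 2, iEV replicate 3 or iGLI2 replicate 3 (adjusted p from 0.0565 to 0.0834), and IRF9 was called without iGLI2 replicate 1 (adjusted p = 0.00438).

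Of the cytoplasmic RNA helicases, DDX58 (RIG-I, a sensor of viral RNA; chr9:32455300-32526322) had 29.0, 26.1 and 26.0 FPKM in iEV and 22.1, 21.6 and 21.4 FPKM in iGLI2. The spread within each group was narrow and replicate 1 was the highest library in both. DDX58 fell by 0.30 ± 0.064 (SE) on the log2 scale (limma adjusted p = 0.0232). IFIH1 (MDA5), the companion sensor for longer RNA, had 19.5, 18.5 and 18.8 FPKM in iEV, within the range of 14.9, 21.5 and 19.6 FPKM in iGLI2. DDX60, a related helicase, had 32.0, 22.5 and 22.7 FPKM in iEV and 30.5, 33.3 and 33.8 FPKM in iGLI2, so that iEV replicate 1 alone reached the iGLI2 values. The DDX58 call was lost without iEV replicate 2, iEV replicate 3, iGLI2 replicate 2 or iGLI2 replicate 3 (adjusted p from 0.0639 to 0.0928), and DDX60 was called higher without iEV replicate 1 (adjusted p = 0.0139).

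ISG15 is a ubiquitin-like protein, UBE2L6 its conjugating enzyme, HERC5 its main ligase, and USP18 the protease that removes it and restrains the type I receptor. ISG15 (chr1:948847-949919) had 323, 251 and 287 FPKM in iEV and 328, 562 and 587 FPKM in iGLI2. iGLI2 replicate 1 stood next to iEV replicate 1, far below the other iGLI2 libraries, and the log2 fold change of 0.74 ± 0.24 (SE) did not pass (limma adjusted p = 0.081). HERC6, a relative of HERC5, had 18.3, 13.2 and 14.0 FPKM in iEV and 21.4, 23.8 and 22.3 FPKM in iGLI2 and was the only gene of these 5 called, higher by 0.55 ± 0.13 (SE) on the log2 scale (adjusted p = 0.0289). HERC5, its neighbour on chromosome 4, had 23.4, 16.6 and 16.2 FPKM in iEV and 20.1, 20.9 and 20.4 FPKM in iGLI2, with iEV replicate 1 as the highest of the 6. USP18 had 25.4, 28.0 and 30.2 FPKM in iEV and 15.6, 22.3 and 21.9 FPKM in iGLI2, which were separate groups but did not pass (adjusted p = 0.0734). UBE2L6 had equal means (ratio 1.00), with an iEV range of 47.3 to 53.0 FPKM inside the iGLI2 range of 39.9 to 55.9 FPKM. Without iGLI2 replicate 1, ISG15 was called higher (adjusted p = 0.0040) and USP18 lower (0.0405), and HERC5 was called higher without iEV replicate 1 (0.0299). The HERC6 call was lost without any of iEV replicates 2 and 3 and iGLI2 replicates 2 and 3 (0.0835 to 0.106).

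The IFIT proteins bind foreign RNA and block its translation, and their genes lie side by side on chromosome 10. IFIT2 (chr10:91061706-91069033) had 75.9, 99.2 and 99.2 FPKM in iEV and 42.7, 52.3 and 50.1 FPKM in iGLI2. The highest iGLI2 library thus stayed below the lowest iEV library. IFIT2 fell by 0.90 ± 0.14 (SE) on the log2 scale (limma adjusted p = 0.00743) and was called whichever library was left out. IFIT3, its binding partner, had 146, 175 and 170 FPKM in iEV and 86.8, 138 and 132 FPKM in iGLI2. Its groups were separate as well, but the gene did not pass with all libraries (adjusted p = 0.131) or without the low iGLI2 replicate 1 (adjusted p = 0.0848). IFIT1, which recognises RNA caps that lack a methyl mark, had 18.7 to 23.5 FPKM in iEV and 19.9 to 26.7 FPKM in iGLI2, and IFIT5 had 15.4 to 16.0 FPKM and 15.1 to 17.8 FPKM. Both overlapped, with 95% intervals of the log2 fold change from -0.14 to 0.53 and from -0.097 to 0.27.

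The OAS enzymes make the short oligoadenylates that switch on RNase L. All 4 estimates were positive, also under upper quartile scaling, quantile normalization and the scaling without small RNA genes, and 1 gene passed. OAS1 (chr12:113344739-113357712) had 33.8, 29.5 and 34.1 FPKM in iEV and 39.6, 51.5 and 53.6 FPKM in iGLI2, higher by 0.55 ± 0.13 (SE) on the log2 scale (limma adjusted p = 0.0336). OAS2 had 20.9, 14.8 and 18.7 FPKM in iEV and 16.5, 21.4 and 20.1 FPKM in iGLI2, OAS3 had 34.1, 29.5 and 32.6 FPKM and 28.7, 41.1 and 40.5 FPKM, and OASL, a relative without the enzyme activity, had 23.6, 19.1 and 17.4 FPKM and 17.6, 26.1 and 24.5 FPKM. In OAS3 and OASL the iGLI2 replicates 2 and 3 lay above all iEV libraries, while in OAS2 iEV replicate 1 lay between them. In these 3 genes iGLI2 replicate 1 fell among or below the iEV libraries. Their adjusted p-values were 0.697, 0.455 and 0.549. The OAS1 call was lost without any single library other than iGLI2 replicate 1 (0.0695 to 0.119), and OAS3 was called higher without iGLI2 replicate 1 (0.0249).

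Of the 7 effectors inside the cell, 3 were higher (SAMD9, SAMD9L and MX2) and 1 was lower (TRIM22). SAMD9 (chr7:92728826-92747336), a restriction factor of poxviruses that limits protein synthesis, had 7.12, 6.30 and 7.06 FPKM in iEV and 12.0, 15.6 and 14.5 FPKM in iGLI2. Its iGLI2 mean was 2.06 times the iEV mean (log2 fold change 0.94 ± 0.11 (SE), limma adjusted p = 0.00289), and it was called whichever library was left out. SAMD9L, its paralogue next door, was the lowest member tested, at 2.27, 1.79 and 2.09 FPKM in iEV and 2.69, 3.30 and 2.99 FPKM in iGLI2 (0.39 ± 0.098, adjusted p = 0.0392). Both paralogues were therefore called in the same direction. MX1 and MX2 are dynamin-like GTPases that trap viral components. MX1 had 51.1, 46.0 and 53.6 FPKM in iEV and 56.6, 94.0 and 92.9 FPKM in iGLI2, and MX2 had 9.12, 8.64 and 11.0 FPKM and 12.1, 20.3 and 19.4 FPKM. The pattern of the 6 libraries was alike in both genes, with iGLI2 replicate 1 just above the iEV libraries, yet MX2 passed (0.76 ± 0.20, adjusted p = 0.0456) and MX1 did not (0.65 ± 0.21, adjusted p = 0.0759). MX1 was called without iGLI2 replicate 1 (0.00196). The calls of MX2 (0.0874 to 0.147) and SAMD9L (0.0508 to 0.131) were lost without any single library other than iGLI2 replicate 1.

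TRIM22 (chr11:5710817-5732093), a ubiquitin ligase with antiviral activity, had 6.07, 6.23 and 6.70 FPKM in iEV and 2.33, 3.55 and 4.002 FPKM in iGLI2. Its 3 iGLI2 values all lay below the iEV values, and it fell by 0.79 ± 0.16 (SE) on the log2 scale (limma adjusted p = 0.0182). The call was lost without iEV replicate 2, iEV replicate 3 or iGLI2 replicate 2 (adjusted p from 0.0510 to 0.0746). RSAD2 (viperin), which makes a chain-terminating nucleotide, had 14.5, 8.97 and 8.66 FPKM in iEV and 7.39, 7.92 and 7.83 FPKM in iGLI2. CMPK2, a nucleotide kinase encoded beside it, had 13.1, 10.5 and 10.1 FPKM in iEV and 8.40, 10.6 and 9.53 FPKM in iGLI2. In both, iEV replicate 1 was the highest of the 6 libraries and iGLI2 replicate 1 the lowest, and neither passed (adjusted p = 0.196 and 0.263). RSAD2 had the widest spread of any member in iEV, where replicate 1 was 1.65 times the mean of the other two.

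Of the 4 membrane proteins 3 were lower and 0 higher, and all 4 estimates stayed negative under the 3 other scalings. IFITM1, IFITM2 and IFITM3 sit in membranes and hinder the fusion of entering viruses, and BST2 (tetherin) holds budding virus at the cell surface. IFITM2 (chr11:308107-309410) had 51.1, 59.0 and 49.6 FPKM in iEV and 15.3, 21.3 and 22.4 FPKM in iGLI2. Its iGLI2 mean was 0.369 of the iEV mean, the largest decrease among the members, and it fell by 1.41 ± 0.16 (SE) on the log2 scale (limma adjusted p = 0.00258) and was called whichever library was left out. IFITM3 had 477, 534 and 490 FPKM in iEV and 202, 302 and 327 FPKM in iGLI2 (-0.88 ± 0.19, adjusted p = 0.0231). BST2 had 23.6, 25.5 and 28.3 FPKM in iEV and 11.0, 17.9 and 17.0 FPKM in iGLI2 (-0.74 ± 0.19, adjusted p = 0.0386). In all 3 the groups were separate and iGLI2 replicate 1 was the lowest library of the 6. IFITM1 differed from its neighbours, with 62.0, 73.8 and 79.8 FPKM in iEV and 38.1, 75.3 and 78.7 FPKM in iGLI2, so that iGLI2 replicate 1 alone stood below the rest (adjusted p = 0.619, 95% interval of the log2 fold change from -0.94 to 0.48). Without that library its estimate turned to 0.11. The IFITM3 call was lost without any 1 of the iEV libraries or iGLI2 replicate 2 (0.0546 to 0.0884), and that of BST2 without any single library other than iGLI2 replicate 1 (0.0534 to 0.130). The 3 IFITM genes are related in sequence and lie within 12.8 kb. How reads that match more than 1 of them were shared out is not given in the sources used here, so their single values are uncertain.

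Of the 7 further members, 3 were higher and 0 lower. IFI6 (chr1:27992572-27998724), a small protein of mitochondria and endoplasmic reticulum that delays cell death, had 53.5, 36.4 and 42.3 FPKM in iEV and 105, 138 and 123 FPKM in iGLI2. The lowest iGLI2 library was well above the highest iEV library, and the iGLI2 mean was 2.77 times the iEV mean, the largest increase among the members (log2 fold change 1.46 ± 0.17 (SE), limma adjusted p = 0.00289). It was called whichever library was left out. IFI27, from the same protein family, was the member with the highest level, at 878, 819 and 950 FPKM in iEV and 1147, 1542 and 1473 FPKM in iGLI2 (0.64 ± 0.13, adjusted p = 0.0198). IFI44L had 4.05, 3.59 and 4.62 FPKM in iEV and 5.93, 8.11 and 8.08 FPKM in iGLI2 (0.71 ± 0.14, adjusted p = 0.0165). The groups of these 3 genes did not overlap. Its neighbour IFI44 had 52.2, 35.1 and 40.5 FPKM in iEV and 43.3, 35.6 and 35.5 FPKM in iGLI2, with replicate 1 as the highest library of each group (adjusted p = 0.570). The call of IFI27 was lost without any single library other than iGLI2 replicate 1 (0.0545 to 0.0807), and that of IFI44L without iEV replicate 1, iEV replicate 2, iGLI2 replicate 2 or iGLI2 replicate 3 (0.0502 to 0.0676).

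XAF1, which promotes apoptosis, had 11.1, 10.7 and 12.9 FPKM in iEV and 11.9, 19.5 and 19.3 FPKM in iGLI2, with iGLI2 replicate 1 among the iEV libraries (limma adjusted p = 0.143). IFI35, which binds the factor NMI, had 61.4, 64.2 and 65.1 FPKM in iEV and 44.0, 61.0 and 62.4 FPKM in iGLI2 (adjusted p = 0.368). EPSTI1 had 11.4, 8.66 and 9.82 FPKM in iEV and 6.89, 9.38 and 8.41 FPKM in iGLI2 (adjusted p = 0.249). None of these was called. PARP9 and PARP14, which act in ADP-ribosylation, went to opposite sides without passing: PARP9 had 37.3, 40.0 and 41.9 FPKM in iEV and 41.1, 53.5 and 50.6 FPKM in iGLI2 (adjusted p = 0.144), and PARP14 had 57.5, 57.6 and 62.2 FPKM and 46.0, 53.2 and 51.8 FPKM in separate groups (adjusted p = 0.0868). XAF1 (0.00568) and PARP9 (0.0139) were called higher without iGLI2 replicate 1. PARP9 and DTX3L are listed under the same locus in the deposited table, and the sources do not say that reads were counted by strand.

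**Figure D3:**
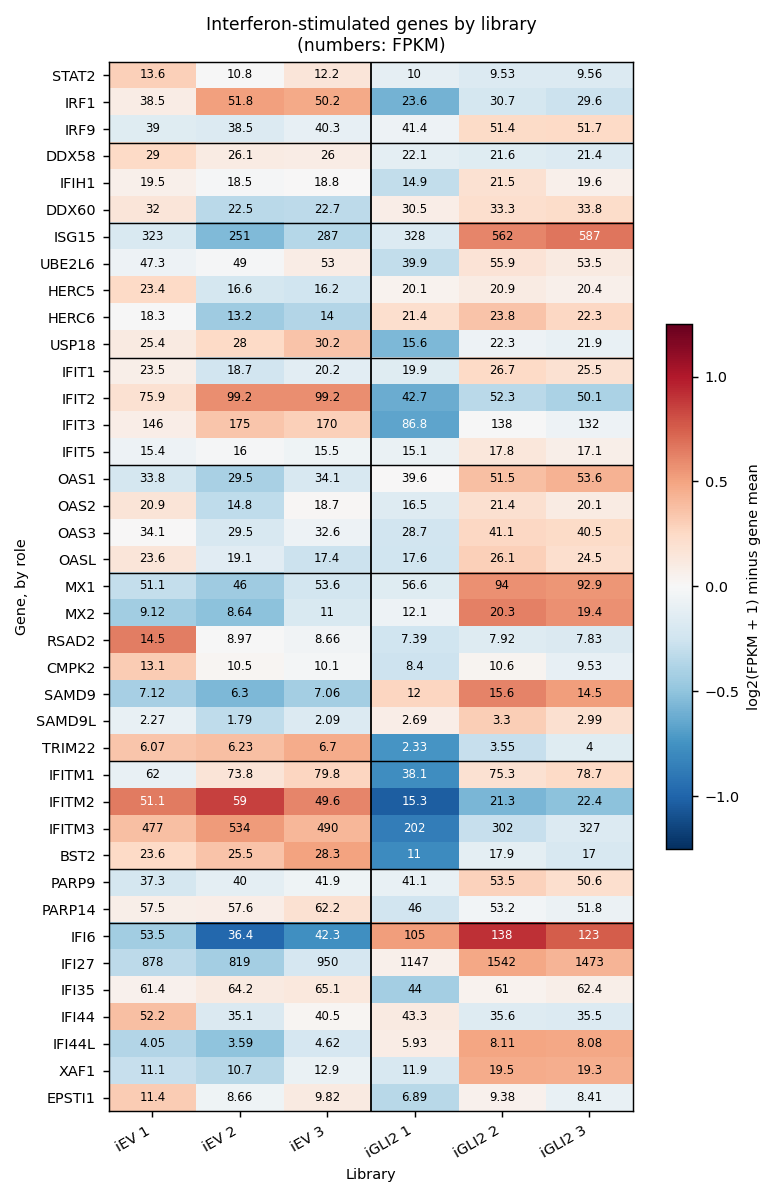
FPKM of the 39 members tested (rows, ordered by role) in the 6 libraries (columns), with colour for log2(FPKM + 1) minus the mean of the gene over the libraries. The column of iGLI2 replicate 1 is bluer than its partners in 36 of the 39 rows, whether the gene was higher or lower in iGLI2.

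The order of the libraries was shared by most members. iGLI2 replicate 1 was the lowest of the iGLI2 libraries in 36 of the 39 members (92.3%), against 52.6% of all genes tested, and the highest in STAT2, DDX58 and IFI44. It was in the middle in 0 members. Its ratio to the mean of iGLI2 replicates 2 and 3 had a median of 0.761 over the members, from 0.494 in IFITM1 to 1.22 in IFI44, against a median of 0.947 and quartiles of 0.800 and 1.12 over all genes. GLI2 itself was also lower in that library, and its part in the members' order was not tested.

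The first iEV library had no such common rank among the members. iEV replicate 1 was the highest of the iEV libraries in 18 members (46.2%, against 38.7% of all genes). It was the lowest in 13 (33.3%, against 43.7%). Its ratio to the mean of iEV replicates 2 and 3 had a median of 1.026 over the members, with 19 below 1 and 20 above. The combination of iEV replicate 1 highest and iGLI2 replicate 1 lowest, which makes the ratio of iGLI2 to iEV lower in the first replicates than in the others, was found in 15 members (38.5%) and in 9.69% of all genes. RSAD2, CMPK2, ISG15 and OASL were among them. In all genes the more frequent orders were replicate 1 lowest in both groups (33.9%) or highest in both (25.2%), which held for 13 members, among them IRF1, IFIT2 and IFITM3, and for the 3 members named above.

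**Figure D4:**
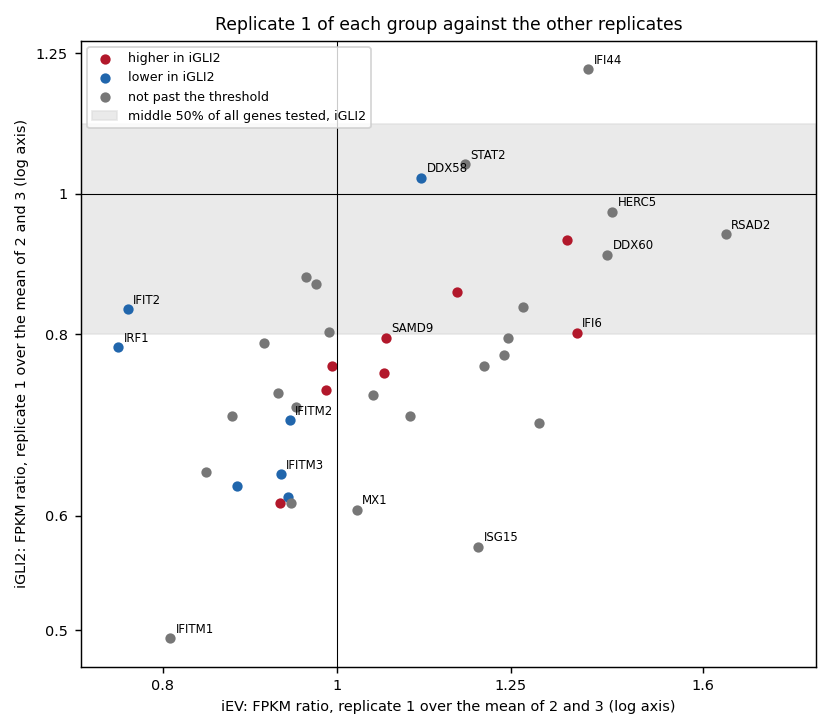
For each tested member, the FPKM of replicate 1 over the mean of replicates 2 and 3 in iEV (x axis, log) and in iGLI2 (y axis, log), coloured by its call, with the middle 50% of the iGLI2 ratios of all genes in grey. All but STAT2, DDX58 and IFI44 lie below 1 on the y axis, while the members spread from 0.756 (IRF1) to 1.65 (RSAD2) on the x axis.

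Ranked over all 6 libraries, iGLI2 replicate 2 held the highest value in 17 members (43.6%, against 14.4% of all genes), and iGLI2 replicate 1 in 0 (against 21.1%). The lowest value lay in iGLI2 replicate 1 in 18 members (46.2%, against 33.1%) and in iEV replicate 2 in 16 (41%, against 11.7%). The median member stood 0.188 and 0.106 above its own mean on the log2 scale in iGLI2 replicates 2 and 3, and 0.169 below it in iGLI2 replicate 1. In iEV replicates 1, 2 and 3 the medians were 0.077, -0.125 and -0.0475. All genes tested had medians between -0.047 and 0.015 in the same libraries. Between replicates, the median absolute log2 difference of the members was 0.395 against 0.209 for all genes in iGLI2 replicates 1 and 2, 0.347 against 0.216 in 1 and 3, and 0.0615 against 0.055 in 2 and 3. In iEV it was 0.203 against 0.136, 0.164 against 0.141 and 0.112 against 0.0674 for the same pairs.

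In level, which FPKM allows to be set side by side between genes because it is per length, IFI27 led with a mean of 1135 FPKM over the 6 libraries. ISG15 (390 FPKM) and IFITM3 (389 FPKM) followed, and their order turned between the groups, with IFITM3 above ISG15 in each iEV library and ISG15 above IFITM3 in each iGLI2 library. IFIT3 had 141 FPKM and IFI6 83.0 FPKM, and IFIT2, IFITM1 and MX1 had 69.9, 68.0 and 65.7 FPKM with overlapping libraries. At the low end stood IFI44L (5.73 FPKM), TRIM22 (4.81 FPKM) and SAMD9L (2.52 FPKM). Calls in both directions were found among the high and the low members.

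Calls were also set side by side for neighbouring members. With 20.5% of the tested members higher and 17.9% lower, most members were not called. Whether neighbours were called together more or less often than other members was not tested. There were 8 places where members lie within 100 kb of each other. SAMD9 and SAMD9L (chr7:92728826-92777701) were both higher. In the other places only some genes or none were called. A split at the threshold is not a tested difference between neighbours. MX2 (limma adjusted p = 0.0456) and MX1 (0.0759) had alike patterns, whereas the estimates of IFI44L (0.71) and IFI44 (-0.14) differed in sign. The IFITM cluster (chr11:308107-320914) held 2 lower genes around IFITM1, the IFIT cluster (chr10:91061706-91180759) 1 lower of 4, and the OAS cluster (chr12:113344739-113449528) 1 higher of 3. The pairs IFI44L and IFI44 (chr1:79086067-79129763), MX2 and MX1 (chr21:42733950-42831141) and HERC6 and HERC5 (chr4:89299891-89427319) each had 1 higher gene, and CMPK2 with RSAD2 (chr2:6980684-7038363) had 0. No cluster held a higher and a lower gene together.

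The rest of the interferon pathway was examined on lists that leave out the members. Of 21 interferon genes 18 are in the table, 0 reached the filter and 12 are listed at 0 in all 6 libraries. The highest value was 0.786 FPKM for IFNE, which is listed under a locus of 105431 bases. The genes not found were IL28A, IL28B and IL29, the type III interferons of the list. No other symbols were searched for them, so type III interferons were not examined. Of 16 receptors, kinases and regulators, 3 were lower. The receptor chains IFNAR2 (type I interferon; mean 20.9 FPKM in iEV and 11.6 in iGLI2, -0.80 on the log2 scale, limma adjusted p = 0.00206) and IFNGR1 (interferon gamma; 53.4 and 22.4, -1.20, adjusted p = 0.00547) were lower, as was STAT3 (51.8 and 41.9, -0.30, adjusted p = 0.0112).

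Of 18 sensors and adaptors tested, 0 were higher and 2 lower, the RNA receptor TLR3 (2.69 and 1.74 FPKM, adjusted p = 0.0259) and the kinase IKBKE (13.5 and 4.65 FPKM, adjusted p = 0.00453). Of 44 further interferon-stimulated genes, 4 were higher (EIF2AK2, SP100, PLSCR1 and BATF2) and 10 lower (GBP4, PML, TRIM5, TRIM14, TRIM21, IFI30, ZC3HAV1, PARP12, APOL2 and NLRC5). PLSCR1, a scramblase with antiviral activity, had a mean of 115 FPKM in iEV libraries and 190 FPKM in iGLI2 libraries (adjusted p = 9.9e-04), and TRIM21, an intracellular antibody receptor, 17.6 and 9.13 FPKM (adjusted p = 6.17e-04). Over all 78 pathway genes tested, 5 were higher and 15 lower with a median log2 fold change of -0.097, beside 8 and 7 of the 39 members. Of all genes tested, 10.1% were higher and 11.8% lower, with a median of -0.0146. Whether any of the pathway lists differs from these shares was not tested.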

How the data were processed

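RNA from 3 iEV and 3 iGLI2 samples was sequenced (Illumina TruSeq). Per the methods and the submitters' processing notes, the authors used Trimmomatic for trimming, TopHat2 for alignment to hg19 and Cuffdiff 2.1.1 for expression. The gene annotation, the scaling between libraries and the strand setting are not given in the sources used here. The deposited table names no unit, and its values are read as FPKM from their form. It has 27024 entries, of which 25772 lie on the primary chromosomes, and 0 further columns of values were left unused. Depth is unknown. The test was limma 3.58.1 (R 4.3.3) on log2(FPKM + 1), with an intensity trend and group as the only term, over genes whose mean reached 1 FPKM, and it had first been tried on simulated data. Fold changes on this scale understate those of low genes. An exact permutation test of 3 against 3 cannot go below a two-sided p of 0.1 and was not used. Tables and plots were made with Python 3.11.15, pandas 2.3.3 and matplotlib 3.10.9. Promoter sequences came from RefSeq (GRCh38.p14) and were placed on GRCh37 by exact match. A deposited locus that overlaps another entry of the table was found for 1 of the 40 members. In a GENCODE annotation on GRCh37, however, 17 of the 40 share exon bases with another annotated gene on either strand. Among them are the called members IRF1, DDX58, IFIT2, OAS1, TRIM22, IFITM2, IFITM3 and IFI6. How reads in such shared bases were assigned is not known. The alternatives were upper quartile scaling, quantile normalization, small RNA genes left out with rescaling, a pseudocount of 0.1, no filter, a filter at 5 FPKM, a block for the replicate number or for the digit in the sample code, limma without the trend, an adjusted p under 0.01 and each library left out. The members and the gene lists were chosen with earlier results of these data known. Every listed member is named, called or not, together with GLI2 and those genes of the pathway lists that were called, of which 1 is not reported here. IFNE, IFNB1, DTX3L, the interferon genes not found and the marker genes are named outside that rule.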

Additional observations from a re-analysis of the deposited data

How the results depend on the processing

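The 15 calls were the same under upper quartile scaling, a pseudocount of 0.1 and limma without the trend, and 12 of them held with no filter on low values, 13 with a mean of at least 5 FPKM and 15 of 17 with quantile normalization. The count of members higher, 8, became 13 with the small RNA genes left out, 5 with a block for the digit in the sample code, 2 at an adjusted p under 0.01 and 18 without both libraries numbered 1, and lay between 2 and 14 with 1 library left out. The count of members lower, 7, became 2 at an adjusted p under 0.01 and 11 without both libraries numbered 1, and lay between 2 and 8 with 1 library left out. It was 6 with the digit as a block. All genes moved with them, from 1262 higher and 1480 lower to 1778 and 1221 with the small RNA genes left out, 962 and 1122 with the digit as a block, 540 and 555 at an adjusted p under 0.01 and 2706 and 2856 without both libraries numbered 1. For the pathway genes, 5 higher became 2 with the digit as a block and 15 without both libraries numbered 1, with a range of 1 to 10 over single libraries, and 15 lower became 27 without both, with a range of 6 to 18.

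The replicate numbers are shared by the groups, but deviations from the group means correlated by 0.204, 0.0919 and 0.0276 for numbers 1, 2 and 3. iGLI2 replicate 3 correlated best with iEV replicate 2 (0.117), so the numbers were not taken to pair the samples. The libraries numbered 1 did share ranks, lowest in both groups in 33.9% of all genes and highest in both in 25.2%. The main test does not model such a shared order. With the replicate block, 7 members were higher and 10 lower, 8 pathway genes were higher and 24 lower, and 1809 and 2119 of all genes against 1262 and 1480 without it. Of the 15 members 14 were called with it, without SAMD9L, and STAT2, USP18 and IFIT3 were added as lower.

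Among single genes, only estimates that did not pass the test changed sign. UBE2L6, at -0.013 on the log2 scale and between -0.10 and 0.14 with 1 library left out, became 0.0010 under upper quartile scaling, 0.0020 under quantile normalization, 0.065 with the small RNA genes left out, 0.032 without iEV replicate 3, 0.14 without iGLI2 replicate 1 and 0.10 without both libraries numbered 1. IFIH1, at -0.033, became 0.042, 0.11 and 0.13 with the small RNA genes left out, without iGLI2 replicate 1 and without both. IFITM1, at -0.23 (-0.41 to 0.11 with 1 library left out), became 0.11 without iGLI2 replicate 1 and 0.0049 without both. IFI44, at -0.14 (-0.27 to 0.0098), became 0.0098 without iEV replicate 1, and OAS2, at 0.094 (-0.039 to 0.20), became -0.039 without iEV replicate 2. The causes were not tested. The members' median and the medians by library moved by less than the spread between replicates under each alternative, but some near 0 turned in sign. The members' median went from 0.084 to -0.022 without iEV replicate 2. The median of iEV replicate 1 went from 0.077 to -0.0025 without iGLI2 replicate 1, and that of iEV replicate 3 from -0.047 to 0.020 without iEV replicate 1. The unknown depth leaves the counting error of the low members, such as SAMD9L and TRIM22, unstated.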

Other observations

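The 18 interferon genes found stayed below the filter in all libraries, and values are given without a test. They do not include the type III interferons IL28A, IL28B and IL29. IFNE had 0.421, 0.364 and 0.297 FPKM in iEV replicates 1 to 3 and 0.598, 0.786 and 0.545 FPKM in iGLI2 replicates 1 to 3. Its entry spans 105431 bases, against 840 for IFNB1. Whether the IFNE values take in other transcripts of that locus is not known. IFNB1, the interferon first made by most infected cells, had 0.0510, 0.0555 and 0 FPKM in iEV and 0.0769, 0.0886 and 0.189 FPKM in iGLI2. In both, every iGLI2 value lay above every iEV value, at levels below 1 FPKM. The share of such genes was 19.2% among the genes tested. Those genes all reached the filter, so that share is no background for genes this low. In the other interferon genes with any value above 0 the groups overlapped.

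The low rank of iGLI2 replicate 1 was also found outside the members. It was the lowest iGLI2 library in 55 of the 78 pathway genes tested (70.5%), between the share of the members and that of all genes. PLSCR1, EIF2AK2 and SP100, whose iGLI2 means were higher, had their lowest iGLI2 value there, as did ZC3HAV1, IFI30 and IKBKE, whose iGLI2 means were lower. Of the other genes called lower, TRIM21, TRIM5, APOL2 and NLRC5 had their highest iGLI2 value there, and IFNAR2 its middle value.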
